A study of Mus musculus with 10 samples.

Results

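The genes described here are 10 genes tied to ERK signalling: the feedback inhibitors Dusp4, Dusp6, Spry1, Spry2, Spry4 and Spred1, the ETS factors Etv4 and Etv5 of its transcriptional output, and the receptors Fgfr1 and Fgfr2, which lie upstream of ERK. They were chosen by name from the 31053 genes of the deposited matrices. All 10 passed the filter on low counts. Their transcripts were counted by single-cell RNA-seq as UMIs (unique molecular identifiers, one per captured molecule) in mouse intestinal organoids and colonic crypts. Organoids are epithelial cultures grown in a gel from small intestinal crypts.

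The organoids were grown in one of 3 media, ENR (3 libraries), -VE (2) and Hyper (3). The colonic crypts came from untreated mice (1 library) and from mice given dextran sulfate sodium (DSS), which injures the colon (1). EGF was in all 3 organoid media at 50 ng/ml. The ENR medium added Noggin at 100 ng/ml and R-Spondin 1 protein at 500 ng/ml. The -VE medium held FGF2 at 20 ng/ml, R-Spondin 1 as conditioned medium at 10%, LDN193189 (a BMP receptor inhibitor) at 0.2 μM, GSK-3 Inhibitor XV at 0.1 μM and Pexmetinib (an inhibitor of p38 and Tie2 kinases) at 1 μM. The Hyper medium was the -VE medium with valproic acid (VPA, a histone deacetylase inhibitor) at 500 μM and EPZ6438 (an EZH2 inhibitor) at 2 μM. FGF2 was therefore present in the -VE and Hyper media and absent from ENR, but it came and went with the other changes, so its part cannot be told apart from theirs. ENR-organoid replicates 1, 2 and 3 were at passage 2, 7 and 3, -VE-organoid replicates 1 and 2 at passage 1 and 6, and Hyper-organoid replicates 1, 2 and 3 at passage 1, 6 and 3. Replicates 1 and 2 of the Hyper- and -VE-organoids were made from ENR-organoids, and replicate 3 of the ENR- and Hyper-organoids from primary crypts. Within a medium, passage cannot be told apart from culture series, which was read here from the first character of the library codes. The labels give no strain, age or number of mice.

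ERK is the last kinase of the cascade that receptor tyrosine kinases, such as those for EGF and FGF, start through Ras. Active ERK switches on genes that then restrain it: Sprouty and Spred proteins block the cascade near Ras and Raf, and dual-specificity phosphatases remove the activating phosphates from ERK. The ETS factors Etv4 and Etv5 are transcribed in response to the same signal, and the levels of these transcripts are widely read as a sign of ERK output in epithelia.

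The members lie on 9 chromosomes of the GRCm38 assembly, with Dusp4 (chr8:34807297-34819894, plus strand) and Fgfr1 (chr8:25513654-25575718, plus strand) on the same one. Dusp6 lies at chr10:99263231-99267489, Spry1 at chr3:37639947-37644598 and Spred1 at chr2:117121374-117182279 on the plus strand. Spry2 lies at chr14:105891947-105896819, Etv4 at chr11:101769742-101785371, Etv5 at chr16:22381309-22439719 and Fgfr2 at chr7:130162451-133123350 on the minus strand. All are protein-coding genes, and the counts are per gene, so the isoforms behind them are not separated. Promoters of 6 of the 10 members were found in the RefSeq table (GRCm38.p6), as windows of 300 bases from 250 before to 50 after the start. The table gave none for Dusp4, Spry4, Etv4 and Fgfr1. Those of Dusp6 and Spry2, feedback inhibitors of each kind, are shown because they held the only matches. One of Etv5, of the 2 in the table the window nearer the gene's annotated start, is shown because its transcript was among the members that differed between the media. Neither Etv5 window held a match. The letters searched, on both strands, were the ETS motif CCGGAAGT, the forms TGAATGAA, TGAATGGA, TCAATGAA and TCAATGGA bound by Capicua (CIC, a repressor that ERK inactivates), and the AP-1 motif TGANTCA. Capitals mark the CIC matches, which read on the opposite strand.
Dusp6 promoter, chr10:99262981-99263280, plus strand: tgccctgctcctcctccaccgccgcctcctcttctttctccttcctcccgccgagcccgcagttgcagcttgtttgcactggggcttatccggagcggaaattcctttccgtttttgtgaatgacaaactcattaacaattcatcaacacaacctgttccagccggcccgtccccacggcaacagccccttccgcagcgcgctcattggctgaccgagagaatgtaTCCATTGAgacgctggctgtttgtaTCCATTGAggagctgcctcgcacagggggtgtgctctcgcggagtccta
Spry2 promoter, chr14:105896770-105897069, minus strand: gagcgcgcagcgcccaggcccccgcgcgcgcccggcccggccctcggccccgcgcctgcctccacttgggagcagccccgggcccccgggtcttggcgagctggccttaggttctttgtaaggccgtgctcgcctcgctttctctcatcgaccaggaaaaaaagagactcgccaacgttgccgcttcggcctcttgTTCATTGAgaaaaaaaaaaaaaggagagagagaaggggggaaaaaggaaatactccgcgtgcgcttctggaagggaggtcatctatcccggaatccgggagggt
Etv5 promoter, chr16:22439521-22439820, minus strand: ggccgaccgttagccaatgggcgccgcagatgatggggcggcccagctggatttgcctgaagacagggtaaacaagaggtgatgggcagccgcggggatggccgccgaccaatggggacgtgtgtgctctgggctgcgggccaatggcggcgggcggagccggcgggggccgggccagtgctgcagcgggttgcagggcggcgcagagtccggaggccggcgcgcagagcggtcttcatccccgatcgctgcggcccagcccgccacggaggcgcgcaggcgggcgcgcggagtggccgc
Dusp6 held the CIC letters TCCATTGA at 24 to 17 bases before its start (-24 to -17) and again at bases 2 to 9 of the transcript. Spry2 held TTCATTGA at -54 to -47. The letters of any CIC form were found in 3.84% of 32851 mouse promoters of this length, ETS in 3.89% and AP-1 in 7.81%. The windows of Spry1, Spred1, Etv5 and Fgfr2 held none of these letters. A match is a description of the sequence and says nothing of binding. The windows shown were rich in G and C, at 57.3% in Dusp6, 62.7% in Spry2 and 74% in Etv5, against a median of 52.7% over all promoters.

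Kept organoid cells gave between 89124015 and 170019527 UMIs per library from 1983 to 4293 cells, and the normal and DSS crypts 19906845 and 32397122 UMIs from 1132 and 1933 cells. Of the barcodes of kept cells, 79 occurred in more than 1 library. The cell classes are the authors' annotation. Marker lists for transit amplifying (TA), goblet and enteroendocrine cells were highest in the class of that name in 8 of 8 organoid libraries, and the stem list in the stem class in 5 and in TA cells in 3. The organoids were epithelial, with summed epithelial markers at 4620 to 5870 CPM (the usual counts-per-million scale, here of UMIs) and summed leukocyte markers at 0.696 to 2.14 CPM.

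Etv4 and Etv5, the ETS transcription factors of the set, were higher in both media that held FGF2 than in ENR, at close to 2-fold. UMIs were summed over the kept cells of each library and tested with edgeR, and a gene was called changed at an adjusted p under 0.05 and at least 2-fold. Levels over all cells are CPM after edgeR's TMM scaling. In such sums, more cells of a type and more RNA per cell cannot be told apart. Nothing in the labels says that the cultures of a group started from separate mice, so p-values measure the spread between these cultures.

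Etv4 stood at 29.3, 30.0 and 29.8 CPM in ENR-organoids, at 53.8 and 59.1 CPM in -VE-organoids and at 49.8, 64.6 and 61.1 CPM in Hyper-organoids. Every library grown with FGF2 was above every ENR library, and the -VE and Hyper libraries overlapped. Over all genes tested, groups without overlap were common. They made up 64.4% of genes between Hyper- and ENR-, 45.7% between -VE- and ENR- and 67% between Hyper- and -VE-organoids. The means were 29.7 ± 0.36 (SD, n = 3), 56.5 ± 3.8 (SD, n = 2) and 58.5 ± 7.7 CPM (SD, n = 3). Against ENR, the log2 fold change of Etv4 was 0.93 in -VE-organoids (SE 0.10, edgeR adjusted p 0.00353) and 0.98 in Hyper-organoids (SE 0.094, edgeR adjusted p 6.57e-05), just under the 2-fold minimum. Without Hyper-organoid replicate 1 the latter was 1.09 and was called. Between Hyper- and -VE-organoids it was 0.05 (SE 0.10, edgeR adjusted p 0.717).

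Etv5, a close relative of Etv4, stood at 9.13, 8.89 and 10.0 CPM in ENR-, 16.1 and 17.1 CPM in -VE- and 14.8, 20.1 and 16.2 CPM in Hyper-organoids. The order of the groups was that of Etv4, with no overlap between ENR and either other medium. The log2 fold change against ENR was 0.83 in -VE-organoids (SE 0.13, edgeR adjusted p 0.0101) and 0.87 in Hyper-organoids (SE 0.11, edgeR adjusted p 0.000354). Between Hyper- and -VE-organoids it was 0.04 (SE 0.13, edgeR adjusted p 0.825). Enterocytes, in which both factors were low, and enterocyte progenitors together took 32.0% to 46.9% of the kept cells in ENR-, 9.97% to 10.6% in -VE- and 0.356% to 1.73% in Hyper-organoids. The values within single classes are given further on.

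**Figure D1:**
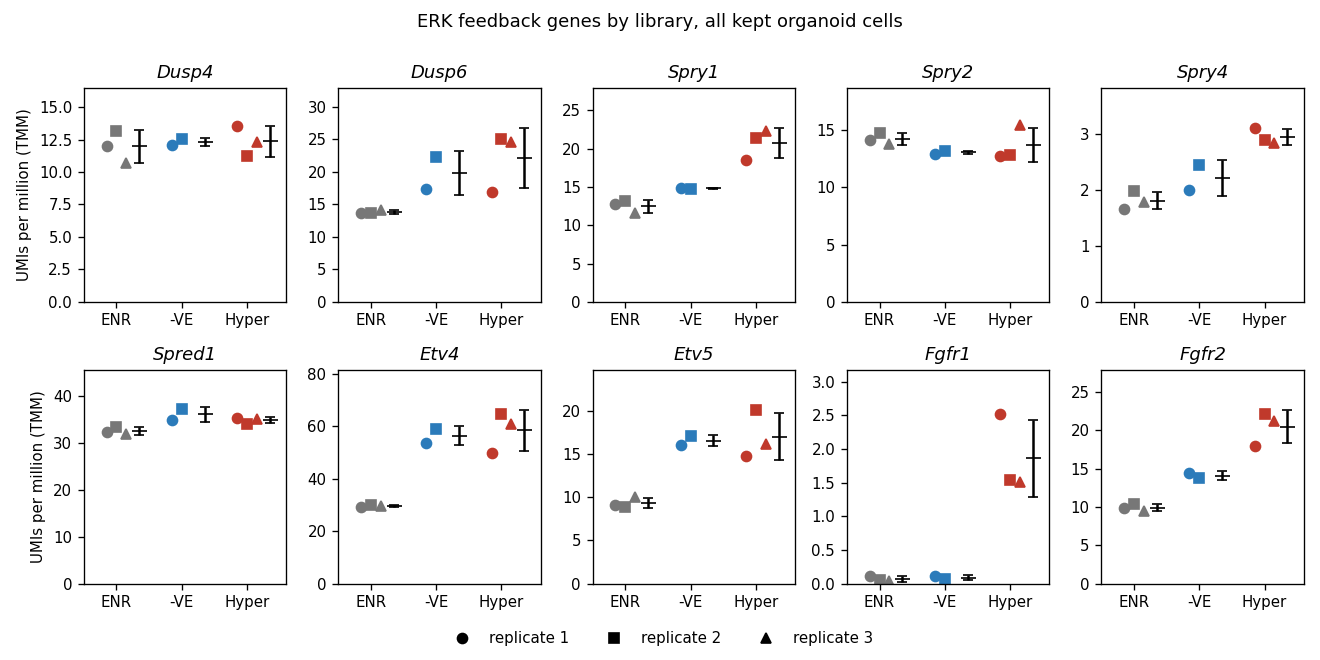
Level of each member in each organoid library, in CPM after TMM scaling, over all kept cells. Symbols stand for replicates, and the dash and bar for the mean ± SD of each medium; Etv4 and Etv5 lie higher in all -VE and Hyper libraries than in ENR, while Fgfr1 is near 0 in all libraries but the 3 of Hyper-organoids.

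Of the phosphatases, Dusp6, which acts on ERK in the cytoplasm, differed between media and Dusp4, its nuclear counterpart, did not pass the test. Dusp6 stood at 13.6, 13.7 and 14.1 CPM in ENR-organoids, 17.4 and 22.2 CPM in -VE-organoids and 16.8, 25.03 and 24.5 CPM in Hyper-organoids. All ENR libraries were below the rest, and the libraries at passage 1 were the lowest of the -VE- and of the Hyper-organoids. Against ENR the log2 fold change was 0.68 in Hyper-organoids (SE 0.15, edgeR adjusted p 0.0059) and 0.52 in -VE-organoids (SE 0.17, edgeR adjusted p 0.107). Between Hyper- and -VE-organoids it was 0.16 (SE 0.17, edgeR adjusted p 0.477). Dusp4 ranged from 10.7 to 13.6 CPM over the 8 libraries with overlap between all media, and its log2 fold changes lay between 0.01 and 0.05 (edgeR adjusted p 0.716 to 0.962).

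Among the Sprouty and Spred inhibitors, Spry1 and Spry4 were higher in Hyper-organoids, and Spry2 and Spred1 did not pass the test in any contrast. Spry1 stood at 12.8, 13.1 and 11.5 CPM in ENR-, at 14.8 and 14.8 CPM in -VE- and at 18.6, 21.3 and 22.4 CPM in Hyper-organoids. The 3 media did not overlap. Its log2 fold change in Hyper-organoids was 0.73 against ENR (SE 0.084, edgeR adjusted p 0.000165) and 0.49 against -VE (SE 0.094, edgeR adjusted p 0.00376). It was 0.24 in -VE-organoids against ENR (SE 0.093, edgeR adjusted p 0.157).

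Spry4, on chromosome 18, was scarcer, at 1.67, 1.98 and 1.79 CPM in ENR-, 1.99 and 2.45 CPM in -VE- and 3.11, 2.90 and 2.85 CPM in Hyper-organoids. The Hyper libraries were above all others, while the lowest -VE library was next to the highest ENR library. Between Hyper- and ENR-organoids the log2 fold change of Spry4 was 0.70 (SE 0.14, edgeR adjusted p 0.00273), and between Hyper- and -VE-organoids 0.41 (SE 0.15, edgeR adjusted p 0.056). Spry2 stood between 12.8 and 15.4 CPM in the 8 libraries, with log2 fold changes between -0.12 and 0.07 (edgeR adjusted p 0.474 to 0.592). Spred1, which holds back Ras and Raf at the membrane, stood between 31.9 and 37.2 CPM. Its log2 fold changes lay between -0.05 and 0.15 (edgeR adjusted p 0.107 to 0.451).

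The receptors had the largest log2 fold changes of the members between Hyper- and ENR-organoids over all cells. Fgfr2 and Fgfr1 bind FGFs and signal into the Ras-ERK cascade. Fgfr2 stood at 9.83, 10.4 and 9.42 CPM in ENR-, 14.5 and 13.7 CPM in -VE- and 18.0, 22.1 and 21.3 CPM in Hyper-organoids. The 3 media did not overlap, which was common over all genes in each contrast, as given above. The log2 fold change of Fgfr2 was 1.05 between Hyper- and ENR-organoids (SE 0.087, edgeR adjusted p 3.17e-05, called), 0.51 between -VE- and ENR-organoids (SE 0.096, edgeR adjusted p 0.0201) and 0.54 between Hyper- and -VE-organoids (SE 0.097, edgeR adjusted p 0.00278). Without Hyper-organoid replicate 2 the first was 0.99 and was not called. The annotated span of Fgfr2 (2960900 bases) overlaps 69 other genes, which lie on both strands and of which some were not counted. How reads in the overlaps were assigned cannot be told from the counts.

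Fgfr1 was nearly absent outside Hyper-organoids. It had 11, 6 and 3 UMIs in the ENR libraries, 13 and 10 in the -VE libraries and 372, 233 and 143 in the Hyper libraries, or 0.114, 0.0501 and 0.0358, then 0.111 and 0.0609, then 2.52, 1.55 and 1.51 CPM. The highest Hyper library was the one at passage 1. Its log2 fold change was 4.78 against ENR (SE 0.44, edgeR adjusted p 5.60e-05) and 4.45 against -VE (SE 0.50, edgeR adjusted p 0.000309), both called, and 0.33 between -VE- and ENR-organoids (SE 0.55, edgeR adjusted p 0.77). A UMI of Fgfr1 was found in 311 of 2812, 214 of 3523 and 123 of 1983 Hyper-organoid cells (6.07% to 11.1%), and in 0.128% to 0.502% of the cells of the other libraries. In libraries with at least 20 enterocytes, Fgfr1 had 0 UMIs in these cells in all 3 media. For Hyper-organoids these were only 58 and 21 cells of replicates 2 and 3, and the 7 of replicate 1 were not counted. Up to 11 UMIs of Fgfr1 came from 1 cell. An antisense gene, Gm16159, overlaps Fgfr1. Summed stromal markers were 0.359 to 0.578 CPM in ENR-, 0.276 to 0.410 CPM in -VE- and 0.831 to 1.13 CPM in Hyper-organoids. Of the 3 tested between Hyper- and ENR-organoids, Col1a1 (164 against 14 UMIs) and Pdgfra (60 against 5) were called higher. Both passed the low-count filter only through the Hyper libraries. The other stromal marker tested was lower in Hyper-organoids and passed the test below 2-fold. Of the 8 stromal markers, 4 were at 0 UMIs in each ENR library and 0 to 2 in each Hyper library. Their part in the result was not tested. Leukocyte markers summed to 1.01 to 2.14 CPM in Hyper-organoids and 0.696 to 0.928 CPM in the others, with Coro1a called higher and Laptm5 called lower in Hyper-organoids and the pan-leukocyte gene Ptprc at 4 UMIs over all 8 libraries. Coro1a passed the low-count filter only through the Hyper libraries, so it could be called only higher in them.

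Counted together, 2 of the 10 members were called between Hyper- and ENR-organoids, the receptors Fgfr1 and Fgfr2, and 0 of the 8 inhibitors and ETS factors by edgeR or DESeq2, of which 5 had an adjusted and an unadjusted edgeR p under 0.05. Both calls were higher, where 22.9% of the 16037 genes tested were called, 18.2% higher and 4.75% lower. Calls between Hyper- and -VE-organoids ran the same way over all genes, 16.1% higher and 2.51% lower. At an adjusted p under 0.05 and any fold there were 7 members, all higher, against 56.8% of all genes in either direction. Between Hyper- and -VE-organoids 1 member was called (18.6% of all genes) and 3 passed at any fold, all higher (47.6%). Between -VE- and ENR-organoids 0 members were called by edgeR and 0 by DESeq2, where 2.55% of all genes were called by edgeR. Etv4, Etv5 and Fgfr2 passed there at any fold (7.88% of all genes), and 6 members, all higher, had an unadjusted p under 0.05 (24% of all genes). Without -VE-organoid replicate 2 only Etv4 passed, at 0.85. The counts at any fold were chosen after the data were seen. The median log2 fold change of the members was 0.72, 0.31 and 0.11 in the order Hyper against ENR, -VE against ENR and Hyper against -VE, and that of all genes -0.01, 0.00 and 0.01. These contrasts share libraries.

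**Figure D2:**
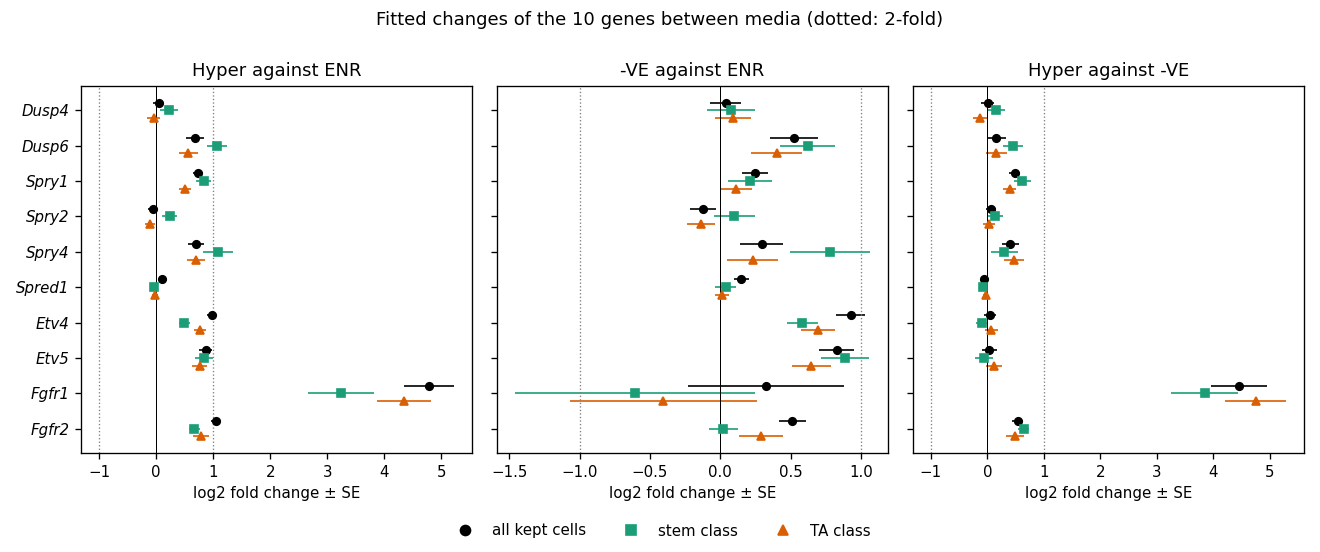
Log2 fold change of each member with its SE in the 3 contrasts, over all cells and within the stem and TA classes, with the 2-fold lines dotted; the horizontal scales differ between panels. Etv4 and Etv5 lie between 0.83 and 0.98 against ENR in both media over all cells, Fgfr1 above 3 in both contrasts of Hyper-organoids, and Dusp4 and Spred1 near 0.

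Within cells annotated as stem cells, Dusp6, Spry4 and Fgfr1 were called between Hyper- and ENR-organoids, and Etv4, Etv5, Spry1 and Fgfr2 passed the test below 2-fold. The class itself differed between media: its 4 stem markers summed to 3157 to 4560 CPM in ENR-, 1958 to 2664 CPM in -VE- and 268 to 923 CPM in Hyper-organoids. Of these, Olfm4 was called lower against ENR and the other 3 were not called. All 4 passed at any fold, 2 of them higher in Hyper-organoids. The 3 libraries in which the stem list was highest in TA cells were those of Hyper-organoids. Markers of other classes also moved within the stem class: those of enterocyte progenitors summed to 785 to 951 CPM in ENR- and 318 to 491 CPM in Hyper-organoids, with 3 of 4 called lower, those of Paneth cells to 98.8 to 112 and 9.52 to 32.7 CPM, with 3 of 4 called lower, and those of enterocytes to 62.2 to 81.2 and 51.2 to 303 CPM, with 1 of 4 called in each direction. Of the 4 goblet markers, 1 was called lower and 1 passed the test higher, below 2-fold. The markers of revival stem cells, a class described after injury, summed to 48.7 to 56.2 CPM in ENR- and 85.6 to 127 CPM in Hyper-organoids, with Clu, Anxa1 and Basp1 called higher. Of the 12 stress genes, Atf3 was called higher in stem cells of Hyper-organoids than of ENR-organoids (log2 fold change 1.60, edgeR adjusted p 0.00608) and -VE-organoids (2.03, edgeR adjusted p 0.00379), and Hspa1a was called lower than in -VE-organoids (-2.24, edgeR adjusted p 0.0416). The part of these in the results was not tested. The 3 calls, all higher, stand against 18% of the 13920 genes tested in this class (15.2% higher) and the 7 at any fold against 49.5%. Without ENR-organoid replicate 1 Spry4 was not called (0.84), without Hyper-organoid replicate 2 Dusp6 was not (0.98), and without ENR-organoid replicate 2 Spry1 was called too (1.03). With cells thinned to 10000 UMIs, Spry4 (1.4999, edgeR adjusted p 0.074) and Fgfr1 (2.46, edgeR adjusted p 0.0506) missed the threshold, and Etv5 was called (1.01). TMM-scaled Dusp6 in stem cells was 11.6, 12.1 and 9.59 CPM in ENR-, 15.4 and 19.0 CPM in -VE- and 18.0, 27.3 and 25.5 CPM in Hyper-organoids. The ENR libraries were lowest, and the highest -VE library was above the lowest Hyper library. Against ENR, Dusp6 had a log2 fold change of 1.08 in Hyper-organoids (SE 0.17, edgeR adjusted p 0.000864) and 0.62 in -VE-organoids (SE 0.19, edgeR adjusted p 0.141). Spry4 rested on 12, 20 and 13 UMIs in ENR-, 75 and 89 in -VE- and 180, 168 and 98 in Hyper-organoid stem cells, and its log2 fold change between Hyper- and ENR-organoids was 1.09 (SE 0.26, edgeR adjusted p 0.00674). Fgfr1 rested on 3, 3 and 0 UMIs in ENR-, 3 and 5 in -VE- and 139, 69 and 53 in Hyper-organoid stem cells, and its log2 fold change was 3.24 (SE 0.59, edgeR adjusted p 0.00158). In this class Fgfr1 passed the low-count filter only through the Hyper libraries, so it could be called only higher in them.

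In stem cells Etv4 and Etv5 were again higher in both other media than in ENR. Etv4 was 37.6, 42.2 and 37.8 CPM in ENR-, 57.0 and 60.6 CPM in -VE- and 47.1, 60.6 and 58.6 CPM in Hyper-organoid stem cells. The -VE and Hyper libraries again overlapped above ENR. In this class 58.2% of all genes had no overlap between Hyper- and ENR-organoids, and 37% between -VE- and ENR-organoids. The log2 fold change of Etv4 against ENR was 0.58 in -VE-organoids (SE 0.11, edgeR adjusted p 0.036) and 0.50 in Hyper-organoids (SE 0.10, edgeR adjusted p 0.00305). Etv5 stood at 8.85, 7.19 and 7.92 CPM in ENR-, 13.9 and 15.7 CPM in -VE- and 12.6, 17.4 and 12.7 CPM in Hyper-organoid stem cells. Its log2 fold change was 0.89 in -VE- (SE 0.17, edgeR adjusted p 0.0371) and 0.83 in Hyper-organoids (SE 0.16, edgeR adjusted p 0.00201).

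Fgfr2 in stem cells was at the same level in ENR-organoids (12.9, 12.8 and 12.9 CPM) and -VE-organoids (12.9 and 13.3 CPM), and higher in Hyper-organoids (18.6, 22.5 and 20.4 CPM). Its log2 fold change was 0.02 between -VE- and ENR-organoids (SE 0.10, edgeR adjusted p 0.947), 0.67 between Hyper- and ENR-organoids (SE 0.092, edgeR adjusted p 0.000335) and 0.65 between Hyper- and -VE-organoids (SE 0.096, edgeR adjusted p 0.000689). Over all cells the -VE-organoids had been higher by 0.51, and the difference between these values was not tested. Spry1 in stem cells was higher in Hyper- than in ENR-organoids by 0.83 (SE 0.14, edgeR adjusted p 0.00103) and than in -VE-organoids by 0.62 (SE 0.14, edgeR adjusted p 0.00704).

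In stem cells 0 members were called between -VE- and ENR-organoids (edgeR, 0.503% of all genes), 2 passed at any fold (1.54% of all genes) and 4 had an unadjusted p under 0.05 (17.7% of all genes). Without any 1 of the 3 ENR or 2 -VE libraries 0 members passed at any fold. Between Hyper- and -VE-organoids 1 was called, Fgfr1 at 3.85 (edgeR adjusted p 0.00082, against 16.5% of all genes called), and 3 passed at any fold (44%). Where a library was left out of the -VE-organoids, the remaining one was assumed to vary like the other groups.

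In TA cells Etv4 was 36.1, 39.1 and 42.0 CPM in ENR-, 60.4 and 65.8 CPM in -VE- and 55.5, 72.9 and 71.0 CPM in Hyper-organoids. All -VE and Hyper libraries were again above ENR and overlapped each other. In TA cells 62.8% of all genes had no overlap between Hyper- and ENR-organoids, and 40.4% between -VE- and ENR-organoids. Within TA cells the enterocyte progenitor markers summed to 1013 to 1158 CPM in ENR- and 287 to 407 CPM in Hyper-organoids, with 4 of 4 called lower, and the stem markers to 1784 to 2659 and 283 to 952 CPM. Of the 4 stem markers, 1 was called lower there, and all 4 passed at any fold, 2 of them higher in Hyper-organoids. Paneth markers summed to 84.1 to 91.9 and 8.40 to 32.1 CPM, with 3 of 4 called lower, and revival stem markers to 44.8 to 52.6 and 80.7 to 117 CPM, with 3 of 4 called higher. Of the 4 goblet markers, 1 was called higher and another passed the test lower, below 2-fold. Their part in the TA values was not tested. The log2 fold change of Etv4 against ENR was 0.69 in -VE- (edgeR adjusted p 0.0228) and 0.77 in Hyper-organoids (edgeR adjusted p 0.000399), and that of Etv5 0.65 (edgeR adjusted p 0.0466) and 0.76 (edgeR adjusted p 0.00107). Fgfr2 in TA cells was higher in Hyper-organoids by 0.78 against ENR (edgeR adjusted p 0.00156) and by 0.49 against -VE (edgeR adjusted p 0.0282).

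Whether the change differed between stem and TA cells, the rapidly dividing descendants of stem cells, was tested in 1 edgeR fit with the library as a block, chosen after the data were seen. Between Hyper- and ENR-organoids Dusp6 changed more in stem than in TA cells (log2 difference 0.50, SE 0.098, edgeR adjusted p 0.00147), and Etv4 changed less in stem cells (log2 difference -0.27, SE 0.057, edgeR adjusted p 0.00293). Both remained past the threshold without each single library. Spry1 (0.35, edgeR adjusted p 0.0337) and Spry2 (0.37, edgeR adjusted p 0.0323) also passed. The difference of Spry1 missed the threshold without ENR-organoid replicate 1 (0.22) or 3 (0.30) and without Hyper-organoid replicate 1 (0.27) or 2 (0.35). That of Spry2 missed it without ENR-organoid replicate 1 (0.22), 2 (0.40) or 3 (0.39), Hyper-organoid replicate 1 (0.26) or 3 (0.32) and -VE-organoid replicate 2 (0.33). These 4 members stand against 15.1% of 14704 genes. Between -VE- and ENR-organoids 0 members passed (1.29% of all genes; 1 member, Spry2, had an unadjusted p under 0.05), and between Hyper- and -VE-organoids 2 did, Dusp4 and Dusp6 (11.7%).

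The members had different places among the cell classes. The values that follow are CPM of the class's own UMIs in each library, without TMM scaling, over classes with at least 20 cells. Dusp4 was highest in enteroendocrine cells, the hormone-producing cells of the epithelium, in 8 of 8 libraries. Its mean there was 51.8 ± 10.4 in ENR- (SD, n = 3), 47.0 ± 19.5 in -VE- (SD, n = 2) and 39.2 ± 3.8 in Hyper-organoids (SD, n = 3), and in stem, TA, goblet and enterocyte cells it lay between 8.51 and 14.2 CPM in every medium. Fgfr2 was highest in goblet cells, the mucus-secreting class, in 8 of 8 libraries, at 38.1 ± 3.8, 32.1 ± 2.9 and 43.5 ± 4.3 CPM in ENR-, -VE- and Hyper-organoids. Enterocytes held the least Fgfr2, with 10, 19 and 8 UMIs in all.

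Hyper- and ENR-organoids stood in opposite order for Dusp6 in goblet and in enteroendocrine cells. In goblet cells it was 22.8 ± 4.1 in ENR-, 40.0 ± 7.2 in -VE- and 54.0 ± 8.3 CPM in Hyper-organoids, with the ENR libraries (19.4 to 27.4) below the Hyper libraries (45.2 to 61.8). In enteroendocrine cells the ENR libraries (56.5 to 87.8) were above the Hyper libraries (44.1 to 48.7), with means of 69.4 ± 16.3 and 47.0 ± 2.5, and the -VE libraries were at 74.2 ± 12.5 CPM (65.4 to 83.0). These goblet and enteroendocrine values were not tested, and the share of all genes without overlap was not computed in these classes. Between Hyper- and ENR-organoids that share was 64.4% over all cells, 58.2% in stem cells and 62.8% in TA cells. The marker levels of both classes moved with the medium. Enteroendocrine markers in enteroendocrine cells summed to 24189 to 38042 CPM in ENR- and 7665 to 21723 CPM in Hyper-organoids, and Paneth markers there to 335 to 627 and 841 to 5111 CPM. Goblet markers in goblet cells summed to 23050.3 to 31450.1 and 9658 to 19367 CPM. Their part in the Dusp6 values was not tested. Etv5 in enteroendocrine cells was 18.6 ± 3.6 in ENR-, 26.1 ± 5.3 in -VE- and 17.6 ± 3.7 CPM in Hyper-organoids, and in goblet cells 8.78 ± 2.13 CPM in ENR- and 22.1 ± 2.5 CPM in Hyper-organoids.

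Etv4 was highest in TA cells in 5 libraries, in stem cells in 2 and in enteroendocrine cells in 1. In ENR-organoids its order was stem (38.1 ± 3.0), TA (38.0 ± 2.0), enteroendocrine (31.7 ± 5.2), enterocyte progenitor (23.2 ± 0.30), goblet (11.5 ± 2.4), Paneth (7.51 ± 4.28, from 17 UMIs) and enterocyte (3.30 ± 0.76 CPM). Stem and TA cells, and goblet and Paneth cells, did not differ beyond their spread. In Hyper-organoids TA cells stood at 69.7 ± 9.8, stem cells at 58.1 ± 7.2, enteroendocrine cells at 33.0 ± 1.9, goblet cells at 28.1 ± 7.2 and enterocytes at 23.5 ± 3.1 (n = 2), with overlap between TA and stem, and between goblet cells and each of its neighbours. Spred1 was highest in TA cells in 7 of 8 libraries. Fgfr1 in Hyper-organoids was 7.31 ± 1.32 CPM in enteroendocrine cells (49 UMIs), 1.95 ± 0.48 in TA cells, 1.86 ± 0.81 in stem cells and 1.66 ± 1.08 in goblet cells, and the last 3 did not differ beyond their spread.

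**Figure D3:**
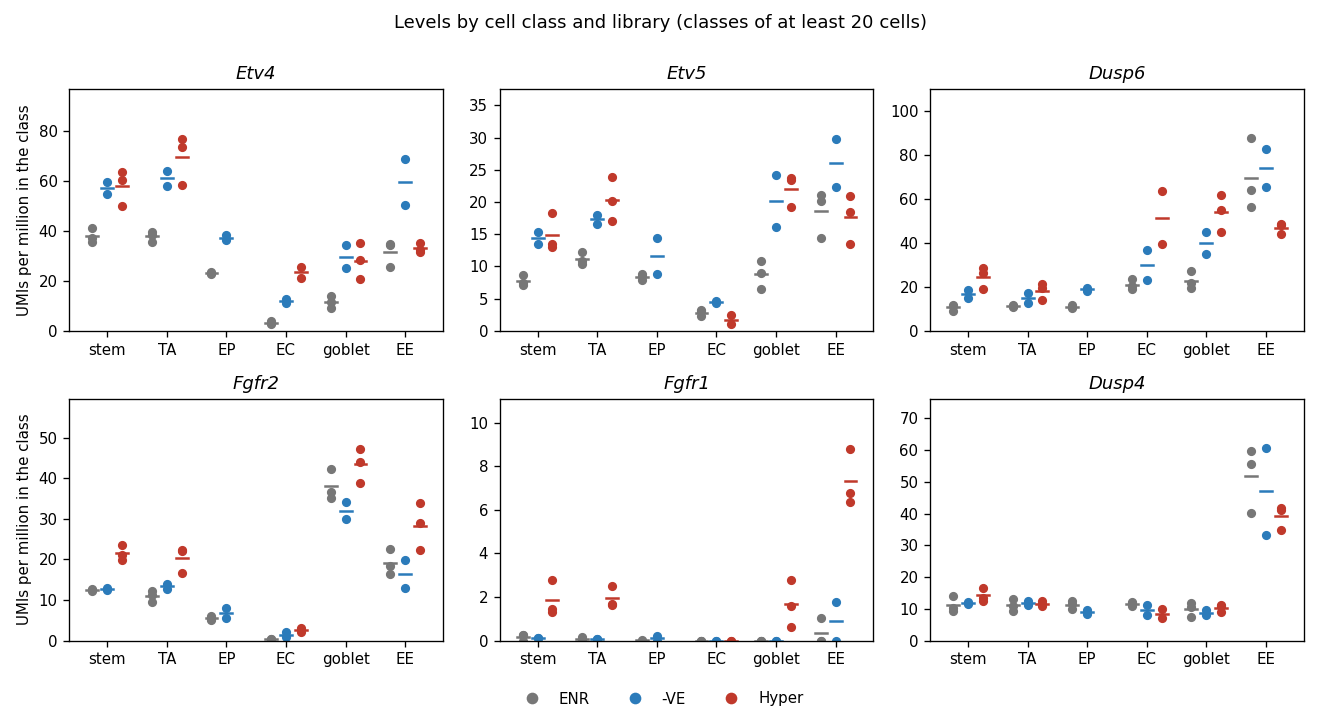
Level of 6 members by cell class, in CPM of the class without TMM scaling; EP are enterocyte progenitors, EC enterocytes and EE enteroendocrine cells. Points are libraries with at least 20 cells of the class and lines are means; Dusp4 stands apart in EE and Fgfr2 in goblet cells in all media, and Fgfr1 is above 1 CPM in stem and TA cells of Hyper-organoids only.

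Other genes of the pathway were taken from lists, and their counts are to be read against the shares of all genes called, 22.9% between Hyper- and ENR-, 18.6% between Hyper- and -VE- and 2.55% between -VE- and ENR-organoids, with most calls of the first 2 contrasts higher. Of 9 further ERK feedback inhibitors, 2 were called higher and 0 lower between Hyper- and ENR-organoids: Dusp9, an ERK phosphatase, by 1.80 (SE 0.13, edgeR adjusted p 1.62e-05) and Spred3 by 1.67 (SE 0.28, edgeR adjusted p 0.00134). The same 2 were called against -VE-organoids, at 1.52 and 2.13, and 0 between -VE- and ENR-organoids. The median log2 fold changes were 0.33, 0.50 and 0.07. Of 12 other ERK target genes, Phlda1 was called against ENR (1.06, edgeR adjusted p 4.62e-06), and Etv1 (1.38) and Egr1 (1.07) against -VE. Between -VE- and ENR-organoids 0 were called, with 6 at an unadjusted edgeR p under 0.05 (24% of all genes), of which Phlda1 was higher and the other 5 lower. The median there was -0.15, and the list summed to 718 and 815 CPM in the -VE libraries, below each ENR library (871 to 984 CPM). Of 6 other dual-specificity phosphatases, Dusp14 was called against ENR (1.46) and Dusp2 against -VE (1.36), both higher in Hyper-organoids.

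Among 7 other FGF receptors and adaptors, of which 6 were tested, the co-receptor Klb rose by 2.69 (edgeR adjusted p 0.000455), Fgfrl1, which lacks a kinase, by 1.65 (edgeR adjusted p 0.000373) and Fgfr4 by 1.16 (edgeR adjusted p 0.000661) between Hyper- and ENR-organoids. Klb and Fgfrl1 were also called against -VE-organoids, at 2.46 and 1.25. Of 22 genes of the Fgf family, listed by name and not by binding to a receptor, 12 were tested. In the order Hyper against ENR, Hyper against -VE and -VE against ENR, 5, 6 and 0 were called, all higher, with median log2 fold changes of 1.12, 1.45 and -0.29. Fgf5, Fgf13 and Fgf16, at 0 to 6 UMIs in each ENR and -VE library, passed the low-count filter only through the Hyper libraries. So did Fgf22, at 4 to 12 UMIs in each ENR and -VE library. All of these genes could be called only higher in Hyper-organoids, and these counts and medians include them. Fgf13 had 345 UMIs in Hyper- and 0 in ENR-organoids, at least 95.9-fold higher when ENR is set to 3 counts over the group, and Fgf5 had 246 and 0, at least 68.4-fold higher. Of the 345 UMIs of Fgf13, 257 came from Hyper-organoid replicate 2, and without it the bound was 39.7-fold. Without ENR-organoid replicate 2 the bounds were 57.8-fold for Fgf13 and 41.2-fold for Fgf5. These 2 settings were chosen after the data were seen. Fgf5 also had 0 UMIs in -VE-organoids. Fgf16 (65 UMIs against 2), Fgf21 (82 against 7) and Fgf11 (log2 fold change 1.35) were the other calls against ENR. Against -VE the largest after Fgf5 were Fgf13 (345 UMIs against 8), Fgf16 (65 against 3), Fgf9 (2.12) and Fgf22 (1.86). Of 21 genes of the Ras-ERK cascade itself, such as the Raf and MAP kinases, 0 were called in any contrast, with 14 passing edgeR's test at any fold between Hyper- and ENR-organoids (56.8% of all genes), 3 of them higher. Their median was -0.24 there.

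Genes induced by cell dissociation include ERK targets. Their sum over a list of 12 was 3126 to 3306 CPM in ENR-, 2789 to 2817 CPM in -VE- and 3093 to 3345 CPM in Hyper-organoids. Zfp36 was called lower in Hyper- and in -VE-organoids against ENR (by edgeR, -1.13 and -1.04), and Atf3 lower in -VE- than in ENR-organoids (-1.49) and than in Hyper-organoids. The part of dissociation in the members' values was not tested.

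Likeness of pattern was measured for the 8 members with a mean of at least 10 CPM, as Pearson's r of log2(CPM + 1) over 32 profiles, 4 classes in each of 8 libraries, among 8234 genes. The profiles share libraries and depth, and r is given as a description. Dusp4 was most like Ranbp9 (0.971), Scg2 (0.966) and Phc2 (0.966). Dusp6 was most like Krt7 (0.936), Fndc3b (0.935) and Tm4sf4 (0.929). Fgfr2 was most like Mical1 (0.956), Msrb1 (0.949) and Impad1 (0.937), and Spred1 like Eef1d (0.932), Dock1 (0.932) and Slc12a2 (0.926). Weaker likeness was found for Etv4 with Bri3bp (0.871), Ino80e (0.870) and Ube2n (0.870), and for Etv5 with Tuba4a (0.808), Nek7 (0.804) and 1500009L16Rik (0.790). Spry1 was most like Aqp11 (0.882), Rabggtb (0.861) and Ostf1 (0.851), and Spry2 like Prmt6 (0.854), Jagn1 (0.829) and Stx3 (0.828).

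In the colonic crypts 1 normal and 1 DSS library were compared, with no replicate and no test. Values are plain CPM over the kept cells with exact 95% Poisson intervals, which cover counting error only. None of the 9 members above 1 CPM was past 2-fold in either direction, where 5.08% of 12440 genes were. The intervals of 4 of the 9 did not overlap, where 39.7% of the 12440 genes had such intervals. These were Spry4, at 6.28 CPM (5.23 to 7.48) in normal and 3.95 CPM (3.30 to 4.70) in DSS crypts, and Etv5, at 8.69 CPM (7.44 to 10.1) and 5.40 CPM (4.63 to 6.26), both lower after DSS. Dusp4, at 3.27 CPM (2.52 to 4.16) and 5.28 CPM (4.52 to 6.13), and Fgfr2, at 7.59 CPM (6.42 to 8.90) and 11.1 CPM (9.94 to 12.3), were higher. The log2 ratios of these 4, with 1 CPM added, were -0.56, -0.60, 0.56 and 0.49. The remaining 5 lay between -0.16 and 0.02, among them Dusp6 at 51.6 and 46.3 CPM and Etv4 at 5.73 and 5.03 CPM. Fgfr1 had 7 and 8 UMIs, of which 3 and 2 remained without cells holding a Ptprc UMI and the clusters rich in them.

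**Figure D4:**
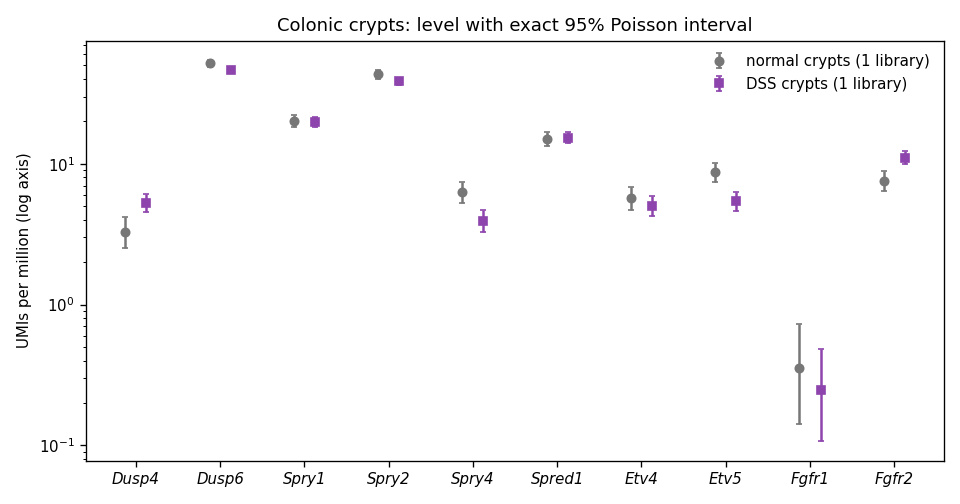
Level of each member in the normal and the DSS crypt library, in CPM on a log axis, with exact 95% Poisson intervals. Each condition is 1 library, and the intervals of Dusp4, Spry4, Etv5 and Fgfr2 do not overlap.

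Leukocyte markers summed to 264 CPM in the normal and 528 CPM in the DSS library. Stromal markers summed to 32.1 and 67.8 CPM, with 4 of the 7 above 1 CPM past 2-fold higher after DSS. The heat shock genes Hspa1a (504 and 65.7 CPM) and Hspa1b (699.8 and 74.2 CPM) were lower. The part of stromal cells and of heat shock in the members' values was not tested. Without the Ptprc-rich clusters and the other cells holding a Ptprc UMI, which left out 20.4% and 24.6% of the cells, Spry2 stood at 32.8 CPM in normal and 34.8 CPM in DSS crypts, in place of 43.1 and 38.6 CPM. The intervals of Spry4 (6.28 and 4.16 CPM), Etv5 (8.99 and 5.67 CPM) and Fgfr2 (7.87 and 11.7 CPM) still did not overlap. Those of Dusp4 did, at 3.24 CPM (2.48 to 4.17) and 4.39 CPM (3.67 to 5.22), and in the Ptprc-rich cluster 8 of DSS cells Dusp4 was at 29.7 CPM (16.2 to 49.8). It was also at 49.1 CPM (26.8 to 82.4) in DSS cells of cluster 16, which is not Ptprc-rich, with 14 UMIs in each of these clusters. Spry2 was concentrated in the Ptprc-rich cluster 0, at 404 CPM (353 to 460) in normal and 268 CPM (230 to 310) in DSS cells. In the cluster the authors name stem (102 normal and 168 DSS cells), Etv4 had 22.4 CPM (16.8 to 29.1) in normal and 3.21 CPM (1.60 to 5.74) in DSS cells, from 55 and 11 UMIs. Most Etv4 UMIs of the DSS library lay elsewhere, with 76 in cluster 4 (15.2 CPM, 12.0 to 19.0), which had 230 DSS and 11 normal cells, and in cluster 13 Etv4 was at 12.4 CPM (6.93 to 20.4) in normal and 17.5 CPM (11.1 to 26.3) in DSS cells. Fgfr2 in the cluster the authors name stem had 10.6 CPM (6.90 to 15.5) in normal and 18.4 CPM (14.1 to 23.5) in DSS cells. Etv5 was at 81.0 CPM (68.0 to 95.7) in the 83 normal cells of cluster 5 and at 38.2 CPM (32.0 to 45.3) in its 150 DSS cells.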

How the data were processed

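The authors aligned and counted 3′ single-cell reads with Cell Ranger and clustered the cells with Seurat. The submitters' processing notes name Cell Ranger 3.0.0 and Seurat 3.1.4. The deposited values are UMI counts per gene and barcode, not normalized, with an annotation of class or cluster for the 25204 cells the authors kept. The smallest gene number among them was 501 to 611 per library and the largest mitochondrial share 20%, where the methods state 1500 genes and 25%. The table of kept cells and the library matrices differed in 0 entries. Doublets were not called.

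The members and gene lists were chosen with earlier results of these data known. UMIs of kept cells were summed per library, and per class for the stem and TA tests. The 8 organoid libraries were fitted together in edgeR 4.0.16 (R 4.3.3) with TMM, filterByExpr and the quasi-likelihood F test, with medium as the only factor and Benjamini-Hochberg adjustment over all genes tested. DESeq2 1.42.0 was an alternative. The script was tested on simulated data. All 10 members are named, and of each other list up to 5 called genes with the largest change per contrast, as well as the 3 genes most like each member of at least 10 CPM. Where a gene had 0 UMIs in a group, a floor of 3 counts over the group gave the bound. Colonic ratios used a pseudocount of 1 CPM and genes of at least 1 CPM in 1 library.

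Replicate numbers of Hyper- and ENR-organoids follow the first character of the library codes, and this pairs the samples. That character was read here as the culture series, a term the labels do not use. Deviations from the group means correlated at 0.192, 0.170 and 0.436 in series 2, 6 and C, and at -0.292 to 0.129 between different series. Deviations within a group sum to 0, which ties these correlations to each other, so the pairing rests on this reading of the codes. Alternatives covered the low-count filter, the cell filter, all barcodes, the 5% of cells with the most UMIs left out, thinning to 10000 UMIs, the block and each library left out.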

Additional observations from a re-analysis of the deposited data

Results flagged for a closer look

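The change between media differed between the stem and the TA class by a direct test (edgeR, library as a block, chosen after the data were seen) in 6 cases. Of the 14704 genes tested, 15.1% passed between Hyper- and ENR-organoids and 11.7% between Hyper- and -VE-organoids. Each value below is the log2 fold change in stem cells minus that in TA cells. Between Hyper- and ENR-organoids it was 0.50 for Dusp6 (edgeR adjusted p 0.00147), 0.35 for Spry1 (edgeR adjusted p 0.0337), 0.37 for Spry2 (edgeR adjusted p 0.0323) and -0.27 for Etv4 (edgeR adjusted p 0.00293). The values for Dusp6 and Etv4 passed without each of the 8 libraries. Those for Spry1 and Spry2 did not, as given above, with adjusted p values up to 0.343 and 0.331 without ENR-organoid replicate 1.

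Between Hyper- and -VE-organoids it was 0.29 for Dusp4 (edgeR adjusted p 0.0406) and 0.30 for Dusp6 (edgeR adjusted p 0.0208). Dusp4 missed the threshold without ENR-organoid replicate 1 (0.27), 2 (0.27) or 3 (0.29), Hyper-organoid replicate 1 (0.19) or 2 (0.32) and -VE-organoid replicate 2 (0.15). Dusp6 missed it without Hyper-organoid replicate 1 (0.27) or 2 (0.27) and -VE-organoid replicate 2 (0.22). Etv4, at -0.15 (edgeR adjusted p 0.0572), passed without ENR-organoid replicate 1 (-0.18), 2 (-0.18) or 3 (-0.16) or Hyper-organoid replicate 1 (-0.19), and Spry1, at 0.25 (edgeR adjusted p 0.101), passed without -VE-organoid replicate 1 (0.40). None of these differences was compared with class size or depth.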

How the results depend on the processing

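Of 534 log2 fold changes of members under the alternatives, 526 kept their direction and side of the threshold or were uncalled throughout, 0 reversed, 5 became called and 3 lost the call. Etv4 between Hyper- and ENR-organoids became called at 10 CPM in 2 libraries (1.09), with all barcodes (1.10) and without Hyper-organoid replicate 1 (1.09). In the stem class Dusp6 (1.08) and Spry4 (1.09) became called. Fgfr2 lost the call without Hyper-organoid replicate 2 (0.99), in stem cells (0.67) and in TA cells (0.78). Leaving out single libraries gave 1 to 3 called members between Hyper- and ENR-organoids, 1 to 4 members at any fold between -VE- and ENR-organoids and 0 to 3 of these in the stem class. That last count was also 0 after thinning to 10000 UMIs. At 10 CPM in 2 libraries, a filter Fgfr1 does not pass, 0 members were called between Hyper- and -VE-organoids.

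Of all genes, that filter left 800 called between Hyper- and ENR-, 166 between -VE- and ENR- and 528 between Hyper- and -VE-organoids. Genes called between -VE- and ENR-organoids numbered 409, and 669 with all barcodes, 263 after thinning and 96 to 519 without single libraries. In the stem class they numbered 70, 140 with the replicate block and 8 to 149 without single libraries. Genes called in the stem class between Hyper- and ENR-organoids numbered 2509, and 1666 after thinning. The cause was not tested.

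The replicate block changed no call of a member. Under it Dusp6 between -VE- and ENR-organoids (log2 fold change 0.56) and Spry4 between Hyper- and -VE-organoids passed at any fold, below 2-fold. The contrasts of -VE-organoids have only 2 pairs, with correlations of deviations of 0.162 and 0.062 with ENR- and 0.139 and 0.115 with Hyper-organoids. The library codes of each pair begin with the same character, which was read here as the same culture series. In colonic crypts 0 members were past 2-fold under all 5 alternatives. Depth limits Fgfr1 outside Hyper-organoids, at 3 to 13 UMIs per library, and Spry4 in stem cells of ENR-organoids.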
